A study of Homo sapiens with 4 samples.

Results

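The class II antigen presentation genes described here are CD74, CIITA, HLA-DRA, HLA-DRB1, HLA-DPA1, HLA-DPB1, HLA-DQA1, HLA-DQB1, HLA-DMA and HLA-DMB, 10 genes chosen by symbol among 57820 listed gene IDs. They were measured by RNA sequencing in cells of the human line MOLM-13, derived from an acute myeloid leukaemia with an MLL-AF9 fusion and an internal tandem duplication of FLT3. The GADD45g group held 2 libraries of cells kept for 4 days in doxycycline, at the 1 mg/ml that the labels state, with GADD45G induced; its product is a small stress response protein that activates the kinase MAP3K4. The control group held 2 libraries of MOLM-13 cells with no treatment, and the design text calls the 2 libraries of a group biological replicate experiments. The labels do not say whether the control cells carry the inducible construct, and cells with doxycycline but no construct were not analysed here, so each difference covers doxycycline and GADD45G together. The question was which class II genes differed between cells with and without induced GADD45G.

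MHC class II molecules are pairs of an alpha and a beta chain that show peptides from endosomes to CD4 T cells, and they are typical of dendritic cells, B cells and monocytes. CD74, the invariant chain, holds new class II pairs together and guides them to endosomes, and HLA-DM (HLA-DMA with HLA-DMB) then exchanges the remnant of CD74 for peptide. CIITA, the class II transactivator, is drawn to a shared promoter module in which the RFX complex binds the X box and NF-Y the Y box, and it is induced by interferon gamma in many cell types.

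The promoters of 4 of these genes are shown because they carry the same X box and Y box letters while their transcripts differed in level and in response. The RefSeq table (GRCh38.p14) held a window of 250 bases before to 50 bases after a start for 8 of the 10 genes. The letters searched, on both strands and without overlap between the motifs, were AGNNACNNNTGATG for the X box and CCAAT for the Y box. The X box letters are those shared by the X boxes of the 4 promoters, so these match by construction and are a description. Among 35116 windows of the same length in the table, 63 (0.179%) held the X box letters, 12155 (34.6%) the Y box letters and 20 (0.057%) both. Capitals mark the matches in the sequences, which run 5′ to 3′ on the gene's strand.
CD74 (chr5:150412861-150413160, minus strand): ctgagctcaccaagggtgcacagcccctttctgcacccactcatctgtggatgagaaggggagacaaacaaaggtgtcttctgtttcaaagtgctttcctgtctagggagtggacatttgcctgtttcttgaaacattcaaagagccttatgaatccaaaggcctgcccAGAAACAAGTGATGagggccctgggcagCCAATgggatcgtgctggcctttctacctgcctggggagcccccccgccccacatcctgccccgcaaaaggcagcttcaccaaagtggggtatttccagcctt
HLA-DRB1 (chr6:32589799-32590098, minus strand): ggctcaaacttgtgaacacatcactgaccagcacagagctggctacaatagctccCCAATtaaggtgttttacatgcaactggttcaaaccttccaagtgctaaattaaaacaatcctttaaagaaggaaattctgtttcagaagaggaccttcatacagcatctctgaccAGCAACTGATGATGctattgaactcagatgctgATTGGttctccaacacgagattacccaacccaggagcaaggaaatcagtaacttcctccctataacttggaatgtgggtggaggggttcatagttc
HLA-DMA (chr6:32953048-32953347, minus strand): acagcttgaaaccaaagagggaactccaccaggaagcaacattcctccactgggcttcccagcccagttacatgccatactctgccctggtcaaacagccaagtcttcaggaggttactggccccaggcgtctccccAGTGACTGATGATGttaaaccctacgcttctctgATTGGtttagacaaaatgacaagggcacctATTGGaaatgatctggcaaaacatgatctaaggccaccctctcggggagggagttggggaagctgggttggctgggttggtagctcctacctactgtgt
HLA-DMB (chr6:32940979-32941278, minus strand): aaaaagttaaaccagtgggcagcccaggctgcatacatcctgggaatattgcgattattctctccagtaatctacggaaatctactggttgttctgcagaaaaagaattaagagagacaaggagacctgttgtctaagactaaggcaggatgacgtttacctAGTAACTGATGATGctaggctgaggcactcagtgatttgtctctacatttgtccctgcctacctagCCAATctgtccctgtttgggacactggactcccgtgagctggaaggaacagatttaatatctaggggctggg

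The X box letters began 81 bases before the start in CD74, 79 in HLA-DRB1, 113 in HLA-DMA and 88 in HLA-DMB, on the strand of the gene in each. A Y box followed nearer to the start, 53 bases before it in CD74, 46 in HLA-DRB1, 79 and 49 in HLA-DMA and 22 in HLA-DMB. The windows of HLA-DPA1, HLA-DPB1, HLA-DQA1 and HLA-DQB1 held no match to the X box letters. Those letters were set from the promoters shown, which do not include these genes. The lack of a match therefore cannot tell whether these windows hold an X box with other letters. A match is no evidence of binding.

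The recovered depths were 18895470 and 15968886 reads in the GADD45g libraries and 18778791 and 15683931 reads in the control libraries. GADD45G (ENSG00000130222), the gene to be induced, was at 3236 and 2118 RPKM in the GADD45g libraries and at 10.5 and 0.289 RPKM in the control libraries, where RPKM are reads scaled to gene length in kilobases and to library depth. Of the myeloid markers of the line, PTPRC was at 23.9 to 36.1 RPKM, CD33 at 12.5 to 21.5 RPKM and SPI1 at 68.7 to 101 RPKM over the 4 libraries, while MPO was at 0.162 to 0.278 RPKM. The 11 of 12 myeloid markers listed in all 4 files summed to 466 and 424 RPKM in the GADD45g libraries. They summed to 1349 and 1034 RPKM in the control libraries. LYZ alone made up 268 and 242 RPKM of the GADD45g sums and 1173 and 868 RPKM of the control sums. The lower sums with GADD45g thus came from LYZ. Of 8 markers tested 1 rose (ITGAM), 1 fell (LYZ) and 6 were not called, where 12.2% of all tested genes rose and 26.7% fell. FLT3, under the filter, was at 0.0889 and 0.0451 RPKM in the GADD45g libraries and at 0.958 and 1.19 RPKM in the control libraries. CD14, also under the filter, was higher, at 1.37 and 1.49 RPKM in the GADD45g libraries and 0.565 and 0.541 RPKM in the control libraries. MPO, under it too, was at 0.278 and 0.225 RPKM in the GADD45g libraries and 0.162 and 0.211 RPKM in the control libraries. CEBPA was at 0.643 RPKM in GADD45g 2, the only GADD45g library with a value, and at 3.36 and 3.54 RPKM in the control libraries. The part of these markers in the class II values was not tested. Epithelial markers set both replicate 1 libraries apart: 8 such genes summed to 41.0 RPKM in GADD45g 1 and 41.8 RPKM in control 1, against 0.271 RPKM in GADD45g 2 and 0.530 RPKM in control 2. Of 10 dendritic cell markers, 2 reached 1 RPKM in any library, BATF3 and FLT3, and FLT3 is also among the myeloid markers. The 10 summed to 1.71 and 1.55 RPKM in the GADD45g libraries and 2.65 and 3.03 RPKM in the control libraries. The lower sums with GADD45g came mostly from FLT3, and BATF3 was not called (limma adjusted p = 0.367). CD1A, CLEC9A, XCR1, LAMP3 and CCR7 were higher in both GADD45g libraries and CD1C, FCER1A and CLEC10A overlapped, all at or below 0.151 RPKM. In these bulk samples fewer cells of a type and less RNA per cell cannot be told apart.

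Values were above 0 in at least 1 library for 9 of the 10 genes, but only CD74, HLA-DRB1 and HLA-DMA reached the mean of 1 RPKM over 4 libraries that was required for a test. In all, 10771 genes were tested, and at a threshold of 0.05 on the adjusted p limma called 38.9% of them, 26.7% lower and 12.2% higher in the GADD45g libraries. The values of the groups did not overlap for 70.0% of tested genes. CD74 fell, HLA-DMA rose and HLA-DRB1 did not pass. With so large a share of all genes called, 2 calls among 3 tested genes say little about the family as a whole. The median log2 change of all tested genes was -0.21, and scaling that moves it to 0 shifts every change upward by about that amount. After TMM scaling of the RPKM, 36.8% of genes were called, and 1917 genes were called higher and 2046 lower, against 1314 higher and 2871 lower without it.

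**Figure D1:**
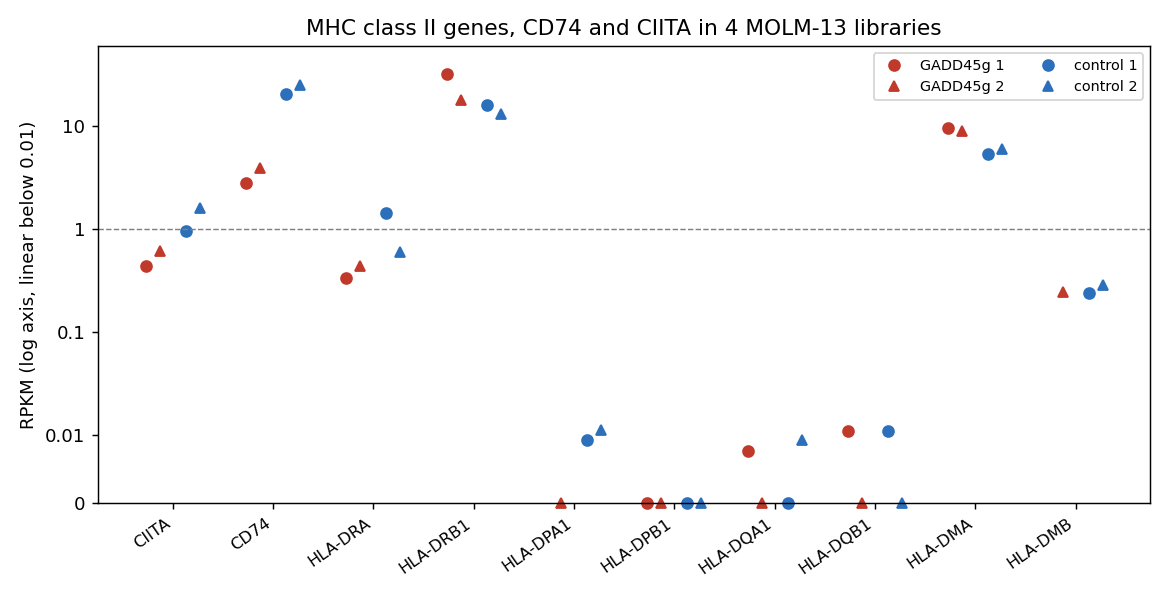
RPKM of the 10 genes in each library, on a log axis that is linear below 0.01, with GADD45g libraries in red and control libraries in blue; circles are replicate 1 and triangles replicate 2. The dashed line marks 1 RPKM, and the first GADD45g file does not list HLA-DPA1 and HLA-DMB; CD74 lies lower in red (2.78 and 3.93 RPKM) than in blue (20.6 and 24.9 RPKM).

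CD74 (ENSG00000019582) was the class II gene with the largest change among the 3 tested. It stood at 2.78 and 3.93 RPKM in the GADD45g libraries, against 20.6 and 24.9 RPKM in the control libraries. Both GADD45g values lay far below both control values, and 45.8% of all tested genes were likewise lower in both. The mean was 3.35 ± 0.819 RPKM in GADD45g cells and 22.8 ± 3.05 RPKM in control cells (SD, n = 2 each), 6.79-fold lower with GADD45g. On the log2(RPKM + 1) scale CD74 fell by 2.46 (SE 0.23; limma adjusted p = 3.26e-05). The values came from 167 and 200 reads in the GADD45g libraries and 1233 and 1245 reads in the control libraries, so counting error was small beside the difference. The fall was as large in each pair of libraries that share a number, -2.52 for replicate 1, in which both libraries carry the epithelial markers, and -2.39 for replicate 2, in which those markers are at or near 0. It was called under each of 18 alternatives, with log2 changes from -2.78 to -1.73 and adjusted p from 3.11e-21 to 0.0181.

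CIITA (ENSG00000179583), the transactivator of the family, was at 0.440 and 0.604 RPKM in the GADD45g libraries and at 0.960 and 1.59 RPKM in the control libraries. The groups did not overlap, and both GADD45g values were the lower ones. The means were 0.522 ± 0.116 RPKM in GADD45g cells and 1.27 ± 0.445 RPKM in control cells (SD, n = 2 each), 2.44-fold lower with GADD45g. The mean over the 4 libraries was under the filter, so CIITA has no test in the main comparison. With no filter on low values its log2 change was -0.57 and did not pass (limma adjusted p = 0.171), in a comparison that called 11.9% of genes, 3.98% higher and 7.92% lower. With limma's voom on recovered reads, a comparison chosen after the data were seen that called 36.5% of genes (24.7% lower), it was -1.26 (adjusted p = 0.0143).

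The CIITA values are also uncertain because of a neighbour. In GENCODE release 29 the exons of CIITA share 2416 bases with those of DEXI, a gene on the opposite strand, and no source used here says whether reads were counted by strand. DEXI was at 7.90 and 8.22 RPKM in the GADD45g libraries and at 14.6 and 16.3 RPKM in the control libraries, and it fell by 0.86 on the log2 scale (SE 0.22; limma adjusted p = 0.00946), a call lost without GADD45g 1 (0.0689) or GADD45g 2 (0.0568). At even coverage the shared bases would hold 361 and 317 DEXI reads in the GADD45g libraries and 664 and 617 in the control libraries. The reads counted for CIITA were 100 and 116 in the GADD45g libraries and 217 and 300 in the control libraries at the shorter of 2 gene lengths that fit the values. At the longer length they were 200 and 232 in the GADD45g libraries and 434 and 600 in the control libraries. At either length the CIITA reads were fewer than these DEXI reads in every library, so at even coverage not all of them were counted for CIITA. The exons of CIITA in GENCODE release 29 hold 20757 bases, while only 12036 or 24072 bases fit the values. The gene model that was counted thus differs, and whether it holds the shared bases is not known. How many DEXI reads, if any, are among those of CIITA was not tested.

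HLA-DRA (ENSG00000204287), the alpha chain of HLA-DR, was at 0.331 and 0.440 RPKM in the GADD45g libraries and at 1.41 and 0.598 RPKM in the control libraries. Both GADD45g values were below both control values, but control 2 lay close to them. The values rest on 8 and 9 reads in the GADD45g libraries and 34 and 12 reads in the control libraries. The exact Poisson 95% intervals of GADD45g 2 (0.201 to 0.836 RPKM) and control 2 (0.309 to 1.04 RPKM) overlap widely. HLA-DRA was under the filter. With no filter its log2 change was -0.50 (limma adjusted p = 0.284), with voom on recovered reads it was -1.27 (adjusted p = 0.207), and without control 1, the library in which it was highest, the change was -0.21 and has no test. Control 1 also carries the epithelial markers, as does GADD45g 1, and the part of these markers in the HLA-DRA values was not tested.

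HLA-DRB1 (ENSG00000196126), a beta chain of HLA-DR, was at 31.8 and 17.9 RPKM in the GADD45g libraries, against 16.2 and 12.97 RPKM in the control libraries. The GADD45g values were both above the control values, and 24.1% of all tested genes were likewise higher in both. GADD45g 1 stood apart, since its interval of 29.5 to 34.2 RPKM lay above that of GADD45g 2, 16.1 to 19.9 RPKM. The means were 24.9 ± 9.79 RPKM in GADD45g cells and 14.6 ± 2.26 RPKM in control cells (SD, n = 2 each). The log2 change of 0.69 (SE 0.29) did not pass (limma adjusted p = 0.0802). It passed in 8 of 18 alternatives, among them all 4 that rescale the libraries or centre the changes (adjusted p = 0.0240 to 0.0343). Without GADD45g 1 the change was 0.29 (adjusted p = 0.544), and without GADD45g 2 it was 1.08 (0.0272). Reads of the near-identical HLA-DRB genes can be split among copies, so the level of any one is uncertain.

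The chains of HLA-DR were unequal in every library. HLA-DRB1 exceeded HLA-DRA 96.1-fold and 40.7-fold in RPKM in the GADD45g libraries, and 11.4-fold and 21.7-fold in the control libraries. The low read counts of HLA-DRA make these ratios imprecise. HLA-DRB5, a second beta chain of HLA-DR, was at 4.58 and 1.29 RPKM in the GADD45g libraries and at 3.76 and 2.83 RPKM in the control libraries. Its groups overlapped, and its log2 change of -0.26 did not pass (limma adjusted p = 0.599) and turned positive after quantile scaling (0.014) and without GADD45g 2 (0.38).

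**Figure D2:**
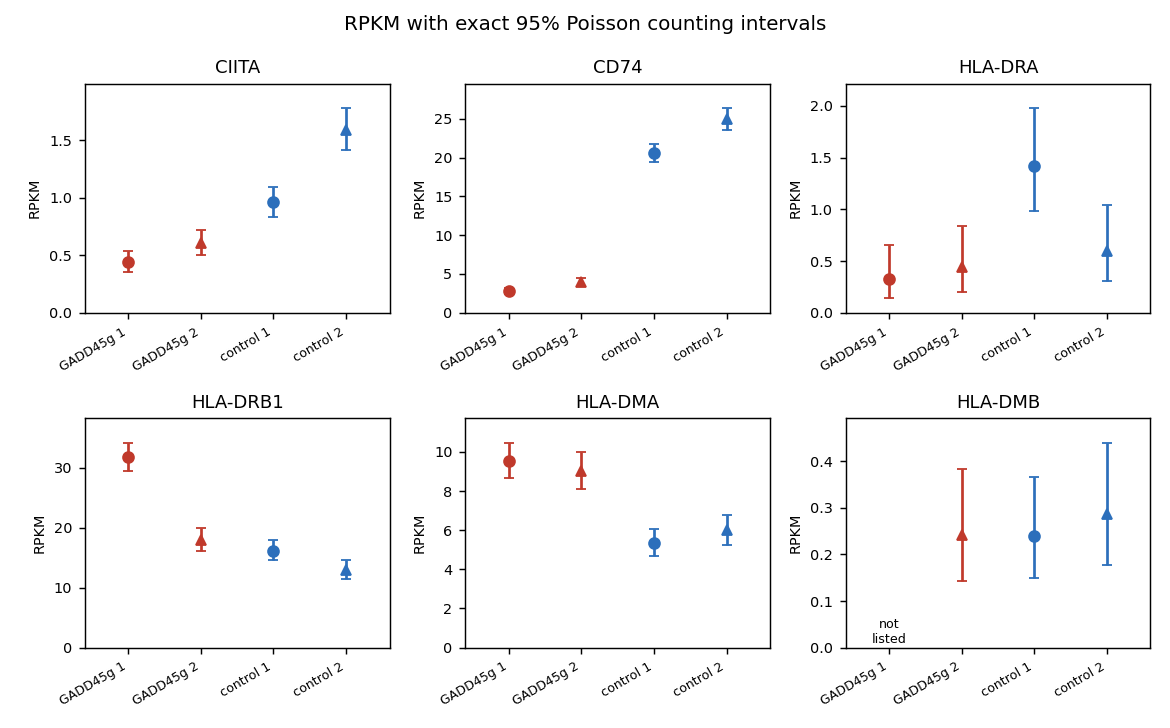
RPKM of the 6 class II genes with more than 1 read in a library, one panel per gene with its own axis from 0, for GADD45g (red) and control (blue) libraries; circles are replicate 1, triangles replicate 2, and bars are exact Poisson 95% intervals, which cover counting error only. The intervals of CD74, CIITA and HLA-DMA do not overlap between groups, and those of HLA-DRA, HLA-DRB1 and HLA-DMB do. HLA-DMB is not listed in the first GADD45g file.

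HLA-DMA (ENSG00000204257), the alpha chain of the peptide exchange factor HLA-DM, was higher with GADD45g. It was at 9.54 and 9.02 RPKM in the GADD45g libraries and at 5.34 and 5.99 RPKM in the control libraries. The groups were separate and the libraries of each group close together. The means were 9.28 ± 0.371 RPKM in GADD45g cells and 5.66 ± 0.460 RPKM in control cells (SD, n = 2 each), 1.64-fold higher with GADD45g. HLA-DMA rose by 0.63 on the log2 scale (SE 0.21; limma adjusted p = 0.0382). The change was positive in all 18 alternatives, 0.73 in the replicate 1 pair and 0.52 in the replicate 2 pair. The call was lost in 7 of them: without each library in turn (adjusted p = 0.0573 to 0.197), with no filter (0.0801), with genes of 3 files included (0.0664) and with voom (0.0535). In GENCODE release 29 its exons share 55 bases with BRD2, a bromodomain gene on the opposite strand. At even coverage these bases would hold 29.3 and 30.6 BRD2 reads in the GADD45g libraries and 24.9 and 28.9 in the control libraries, against 457 and 365 reads of HLA-DMA in the GADD45g libraries and 254 and 238 in the control libraries.

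HLA-DMB (ENSG00000242574), the partner of HLA-DMA, was at 0.242 RPKM in GADD45g 2, the only GADD45g library with a value, and at 0.240 and 0.288 RPKM in the control libraries. These came from 18 reads in GADD45g 2 and from 21 and 21 reads in the control libraries, and the GADD45g value lay between the control values. HLA-DMA exceeded HLA-DMB 37.3-fold in GADD45g 2, and 22.2-fold and 20.8-fold in the control libraries.

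The HLA-DP and HLA-DQ chains were at or near 0 in these cells. HLA-DPB1 was at 0 in all 4 libraries, which allows up to 0.0569 and 0.0673 RPKM in the GADD45g libraries and 0.0572 and 0.0685 RPKM in the control libraries, at 3 reads a library. HLA-DPA1 was at 0 in GADD45g 2 and had 1 read in each control library. HLA-DQA1 had 1 and 0 reads in the GADD45g libraries and 0 and 1 reads in the control libraries. HLA-DQB1 had 1 and 0 reads in the GADD45g libraries and 1 and 0 reads in the control libraries. No difference in HLA-DP or HLA-DQ was detectable at this depth.

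By mean RPKM the order in GADD45g cells was HLA-DRB1 (24.9), HLA-DMA (9.28), CD74 (3.35), CIITA (0.522) and HLA-DRA (0.386). In control cells it was CD74 (22.8), HLA-DRB1 (14.6), HLA-DMA (5.66), CIITA (1.27) and HLA-DRA (1.01). CD74 was thus first among them in control cells and below HLA-DRB1 and HLA-DMA in GADD45g cells. CIITA and HLA-DRA did not differ beyond the spread of the libraries, since their values overlapped in both groups. The ratio of CD74 to CIITA in RPKM was 6.31 and 6.52 in the GADD45g libraries and 21.5 and 15.7 in the control libraries.

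**Figure D3:**
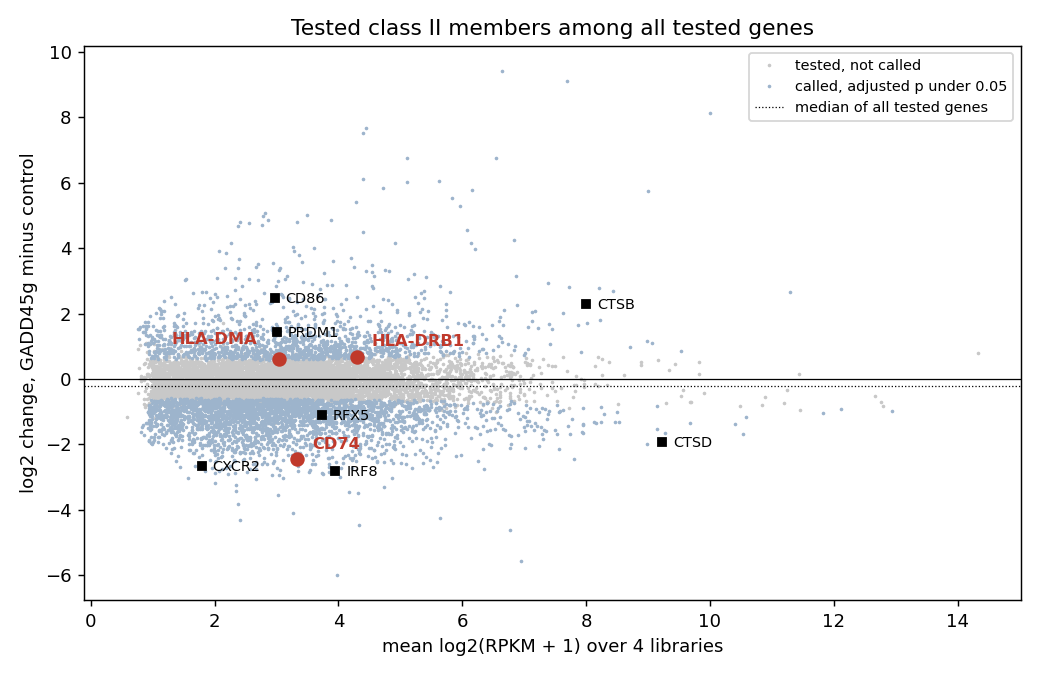
Log2 change (GADD45g minus control) against mean log2(RPKM + 1) over the 4 libraries for 10771 tested genes, with called genes in blue and others in grey; red points are the 3 tested class II genes and black squares genes of the pathway. CD74 lies at -2.46, HLA-DMA at 0.63 and HLA-DRB1 at 0.69, and the dotted line marks the median of -0.21.

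Of the other class II genes, 7 of 9 symbols were matched and only HLA-DRB5 was tested. HLA-DOB, a chain of the HLA-DM inhibitor HLA-DO, was at 0.303 RPKM in GADD45g 2 (9 reads) and at 1.43 and 1.54 RPKM in the control libraries (50 and 45 reads). HLA-DOA, its partner, was at 0.0660 and 0 RPKM in the GADD45g libraries and at 0 in both control libraries.

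Of 13 tested genes of the promoter complex on which CIITA acts, 4 fell, 0 rose and 9 were not called, where 26.7% of all tested genes fell and 12.2% rose. The share that fell was near that of all genes, and the median log2 change was -0.35 against -0.21 over all tested genes. RFX5, the DNA-binding subunit of the RFX complex, was at 8.14 and 8.14 RPKM in the GADD45g libraries and at 17.9 and 19.0 RPKM in the control libraries (log2 change -1.09; limma adjusted p = 0.00251). RFXAP, a second subunit, was at 2.23 and 1.87 RPKM in the GADD45g libraries and at 7.09 and 4.34 RPKM in the control libraries (-1.11; limma adjusted p = 0.00492). RFXANK, the remaining subunit, was at 22.0 and 15.1 RPKM in the GADD45g libraries and at 20.3 and 22.3 RPKM in the control libraries, and did not pass (-0.21; limma adjusted p = 0.527). The groups were separate for RFX5 and RFXAP and overlapped for RFXANK. NFYB, a subunit of NF-Y, changed by -1.07 (limma adjusted p = 0.00341) and NLRC5, a relative of CIITA that acts on MHC class I genes, by -1.06 (0.00806). RFXAP and NLRC5 lost their calls without GADD45g 2 (0.0518 and 0.0601) and with no filter (0.0850 and 0.108). With no filter only 2 genes of this list were called. With a filter at 5 RPKM 2 of the 8 genes then tested were called, and RFXAP and NLRC5 were not among those tested.

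Of 14 tested genes of interferon gamma signalling and known regulators of the CIITA promoters, 5 rose, 1 fell and 8 were not called, where 12.2% of all tested genes rose and 26.7% fell. The median log2 change was 0.47, against -0.21 over all tested genes. IFNG itself was at 0 in all 4 libraries. IRF8, a transcription factor of the monocyte and dendritic cell lineage, was at 6.06 and 3.87 RPKM in the GADD45g libraries and at 44.4 and 35.9 RPKM in the control libraries (-2.80; limma adjusted p = 2.41e-05). PRDM1, known in B and plasma cells as a repressor of CIITA, was at 11.3 and 13.4 RPKM in the GADD45g libraries and at 3.65 and 4.09 RPKM in the control libraries (1.45; limma adjusted p = 0.000478). IRF8 was thus lower and PRDM1 higher in both GADD45g libraries than in either control library. SOCS3, an inhibitor of cytokine signalling, rose by 2.18 (limma adjusted p = 4.02e-05). The interferon gamma receptor chain IFNGR2 rose by 0.77 (limma adjusted p = 0.0263), a call lost in 5 of 18 alternatives: without GADD45g 2 (0.185), control 1 (0.105) or control 2 (0.0588), with no filter (0.0724) and with genes of 3 files (0.0524). The kinase JAK1 rose by 0.98 (limma adjusted p = 0.00667), a call lost without GADD45g 2 (0.0546). IRF1 was at 6.47 and 7.18 RPKM in the GADD45g libraries and at 2.94 and 5.23 RPKM in the control libraries, and did not pass (0.66; limma adjusted p = 0.0630), but passed in 9 of 18 alternatives.

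Of 14 tested genes of peptide loading and invariant chain processing, 3 rose, 1 fell and 10 were not called, with a median log2 change of 0.06. Fewer of them were called, 4 of 14, than the 38.9% of all tested genes (12.2% higher and 26.7% lower). CTSB, cathepsin B, was at 581 and 554 RPKM in the GADD45g libraries and at 105 and 126 RPKM in the control libraries (2.29; limma adjusted p = 8.49e-05). CTSD, cathepsin D, was at 312 and 303 RPKM in the GADD45g libraries and at 1030.2 and 1327 RPKM in the control libraries (-1.92; limma adjusted p = 0.000357). CTSS, cathepsin S, which makes the last cuts of CD74 in antigen-presenting cells, was at 32.1 and 39.1 RPKM in the GADD45g libraries and at 39.2 and 34.8 RPKM in the control libraries and did not pass (-0.06; limma adjusted p = 0.869). The tetraspanin CD82 rose by 1.20 and the clathrin adaptor subunit AP2M1 by 0.80 (limma adjusted p = 0.00273 and 0.0265), the second of which was lost without GADD45g 1, control 1 or control 2 (0.193, 0.105 and 0.0760), with no filter (0.0851) and with genes of 3 files (0.0538).

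Of 4 tested genes of class II turnover and CD74 partners 2 rose, 1 fell and 1 was not called, with a median log2 change of 0.38. Over all tested genes 12.2% rose and 26.7% fell, and 4 genes are too few to set against these shares. MARCHF8, a membrane ubiquitin ligase whose relative MARCHF1 removes class II from the surface, rose by 0.94 (limma adjusted p = 0.00561). MARCHF1 was at 0.102 and 0.0541 RPKM in the GADD45g libraries and at 0.639 and 0.392 RPKM in the control libraries and was under the filter. CD44, which signals together with CD74, rose by 1.07 (limma adjusted p = 0.00585), and CXCR2, a chemokine receptor that pairs with CD74 as a receptor for MIF, fell by 2.65 (1.90e-05). Without GADD45g 2 only 1 gene of this list was called, since CD44 and MARCHF8 then missed the threshold (0.0648 and 0.0722).

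Of 11 listed co-stimulatory and adhesion genes of antigen-presenting cells, 6 were tested, of which 4 rose, 0 fell and 2 were not called, where 12.2% of all tested genes rose and 26.7% fell. The median log2 change of the 6 was 1.19, against -0.21 over all tested genes. CD86, a ligand of CD28, was at 14.5 and 21.1 RPKM in the GADD45g libraries and at 2.50 and 2.14 RPKM in the control libraries (2.48; limma adjusted p = 3.50e-05). CD83, a surface protein of mature dendritic cells, was at 22.0 and 19.1 RPKM in the GADD45g libraries and at 6.47 and 5.83 RPKM in the control libraries (1.59; limma adjusted p = 0.000295). TNFSF9 rose by 1.66 (limma adjusted p = 0.00101) and ICAM1 by 0.80 (0.0293), the second of which was lost without GADD45g 1, GADD45g 2 or control 1 (0.0675, 0.150 and 0.150), with no filter (0.106) and with genes of 3 files (0.0627). CD80, the other ligand of CD28, was at 0.0331 and 0.0978 RPKM in the GADD45g libraries and at 0.0166 and 0.0398 RPKM in the control libraries. CD86 and CD83 were thus higher while CD74 was lower in the same libraries.

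**Figure D4:**
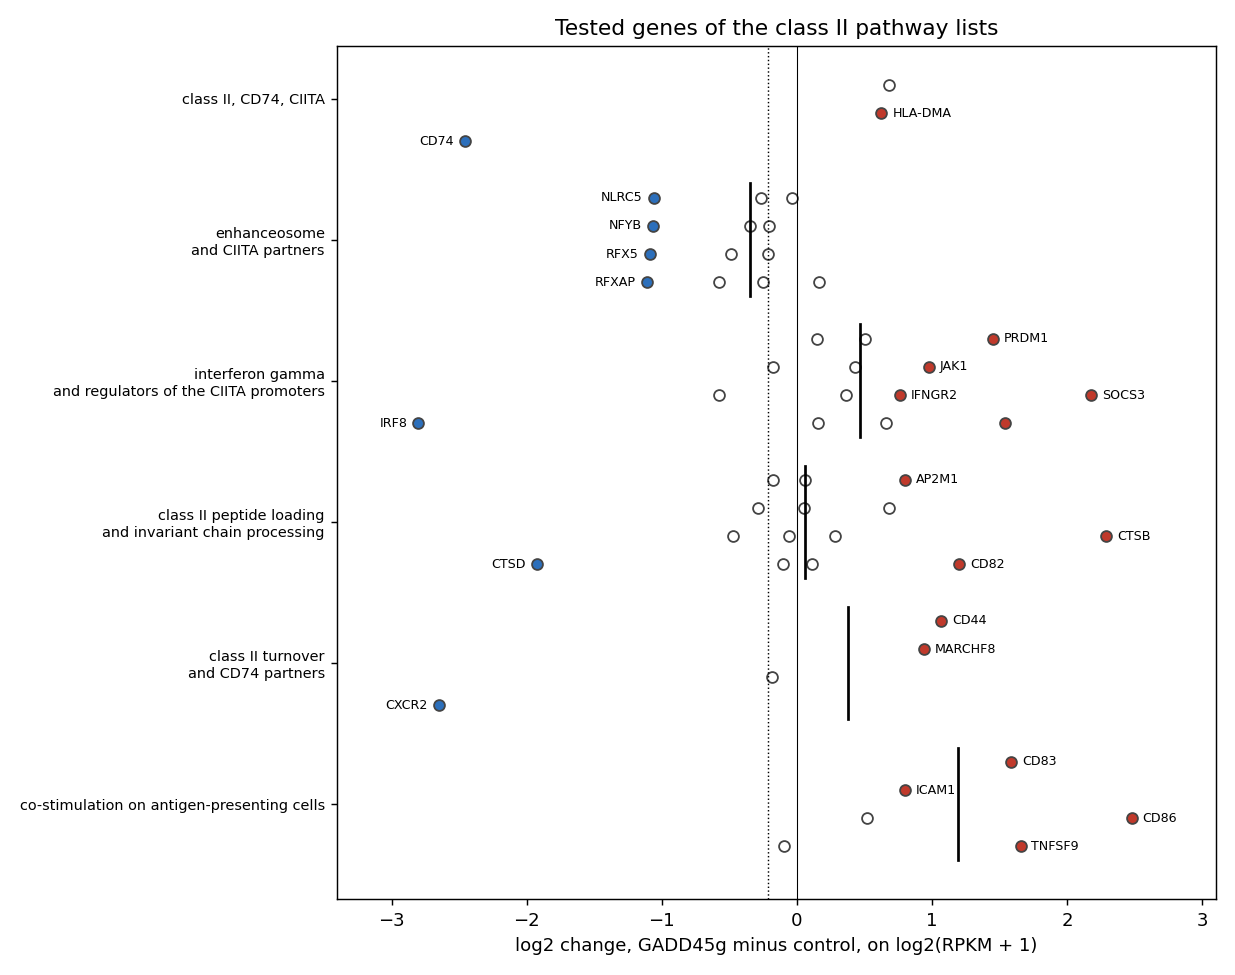
Log2 change (GADD45g minus control) of the tested genes of each pathway list, one row per list, with called genes described in the text labelled; filled red points rose, filled blue points fell and open points were not called, with vertical position within a row used only to separate points. Vertical bars mark the median of a list, such as 1.19 for co-stimulation, and the dotted line the median of all tested genes, -0.21.

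Markers of other cells that use class II moved in part with the groups. The 9 B cell markers summed to 11.8 and 11.3 RPKM in the GADD45g libraries and 5.67 and 6.67 RPKM in the control libraries. FCRLA and EBF1 rose, while the defining marker MS4A1 was at 0 in both GADD45g libraries and at 0 and 0.0131 RPKM in the control libraries and BLK was at 0 in all 4. The 7 T cell markers matched summed to 39.0 and 39.4 RPKM in the GADD45g libraries and 82.9 and 92.3 RPKM in the control libraries, and 1 of them reached 1 RPKM, CD4, which monocytes also express. The 6 fibroblast markers summed to under 0.5 RPKM in every library. Of 7 erythroid and megakaryocytic markers, the 6 listed in all 4 files summed to 1.19 and 1.81 RPKM in the GADD45g libraries. They summed to 0.395 and 0.611 RPKM in the control libraries. The part of these marker sums in the class II values was not tested. LYZ, lysozyme of monocytes and granulocytes, was at 268 and 242 RPKM in the GADD45g libraries and at 1173 and 868 RPKM in the control libraries (log2 change -1.98; limma adjusted p = 0.000326).

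The tested genes whose log2(RPKM + 1) values over the 4 libraries, minus their mean, lay nearest to those of CD74 were PAICS, BUB1B and TOP2A, at Euclidean distances of 0.152, 0.164 and 0.169. PAICS, an enzyme of purine synthesis, was at 5.10 and 6.72 RPKM in the GADD45g libraries and at 38.0 and 42.1 RPKM in the control libraries. Nearest to CIITA were TSC1, CORO2A and LRRC51 (0.0265, 0.0334 and 0.0357), and among the 3 nearest to HLA-DRA were NMD3 and ZFP91 (0.0332 and 0.0484). The distances were ranked over 10198 genes, and with only 4 libraries such likeness is a description.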

How the data were processed

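The deposited values are RPKM per Ensembl gene ID and library, per the file headers; TopHat, Cuffnorm and Cuffdiff, with the hg19 build, are named in the submitters' processing notes, without versions or roles. The file of GADD45g 1, as used here, ends after 27332 of 57820 IDs. Symbols came from a table of gene names (51996 IDs matched, version stripped), and rows of 1 symbol were summed.

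Low values were whole multiples of 1 read within 0.01 reads, which gave each library's depth. Reads per gene followed from gene lengths that made values whole within 0.005 reads, taking the length nearest to that of GENCODE release 29. CIITA fitted 2 lengths, and the shorter was used for its intervals and for voom. One read in 1 kb was worth 0.0529 and 0.0626 RPKM in GADD45g libraries and 0.0533 and 0.0638 RPKM in control libraries. Intervals are exact Poisson (95%), a count of 0 allows up to 3 reads, and both cover counting error only.

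Genes listed in all 4 files with a mean of at least 1 RPKM were compared as log2(RPKM + 1) with limma 3.58.1 (R 4.3.3; eBayes with trend), two-sided, with Benjamini-Hochberg adjustment over 10771 genes and a threshold of 0.05. This scale understates changes of low genes. There were 2 residual and 8.72 prior degrees of freedom; p-values measure the spread between these libraries. The code was tested on simulated data. Tables and figures used Python 3.11.15 with pandas 2.3.3, numpy 2.4.6, scipy 1.17.1 and matplotlib 3.10.9.

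The members and the pathway and marker lists were chosen with earlier results of these data known. Named genes are all members, GADD45G, genes of the class II, promoter complex and interferon lists, up to 4 tested genes with the smallest adjusted p of other pathway lists, and the 3 genes nearest to CD74, CIITA and HLA-DRA. CTSS, MARCHF1, CD80, LYZ, ITGAM, FLT3, CD14, MPO, CEBPA, FCRLA, EBF1, CD4 and the overlapping DEXI and BRD2 were named after their values were seen. So were BATF3 and the other dendritic cell markers. Some genes that this rule would name are not reported here. Alternatives were a pseudocount of 0.1 or 5 RPKM; a filter at 5 RPKM or none; scaling by TMM, upper quartile or quantiles, or centring on the median change; a robust prior or no trend; a block for the replicate number; leaving out each library; genes of 3 files, the highest row per symbol and, added after seeing the data, voom on recovered reads (mean of at least 10). No gene coordinates are given for the measured genes, because the annotation at hand is of another build.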

Additional observations from a re-analysis of the deposited data

How the results depend on the processing

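Of 18 alternatives, each kept CD74 called as lower. The count of class II genes called was 2 in the main comparison. It was 1 with no filter and 1 with genes of 3 files included, as HLA-DMA lost its call. The other alternatives that kept all 4 libraries gave 2, or 3 where HLA-DRB1 gained its call. With voom the 2 genes called were CD74 and CIITA, both lower, since HLA-DMA lost its call and CIITA was tested there. The count over all genes, 4185, was 2462 with no filter and 2597 to 3582 with each library left out. Among the genes described, directions turned for some that were not called: HLA-DRB5 after quantile scaling (0.014) and RFXANK (0.032 after TMM, 0.0060 after the median shift). CTSS also turned (0.12 after upper quartile, 0.19 after TMM, 0.11 after quantile scaling and 0.16 after the median shift). With each library left out, log2 changes ran from -0.90 to 0.38 for HLA-DRB5, -0.092 to 0.37 for BRD2, -0.47 to 0.044 for RFXANK and -0.20 to 0.082 for CTSS. The cause was not tested. Deviations of libraries with the same number correlated at r = 0.35 across genes, but the labels give no shared batch. With the replicate block 4987 genes and 3 class II genes were called, HLA-DRB1 among them (adjusted p = 0.0179). Depth limits HLA-DRA, HLA-DMB, HLA-DP and HLA-DQ, which had at most 34 reads a library.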
